A study of Rattus norvegicus with 4 samples.

Results

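The endocannabinoid genes described here are the receptor gene Cnr1 and the genes of 5 enzymes that make or break down its ligands, Dagla, Daglb, Mgll, Faah and Napepld. They were chosen by symbol, and each symbol matched 1 row of the deposited gene table, so they are 6 of 25399 genes. Endocannabinoids are lipid messengers that neurons release from the postsynaptic side. They travel backwards across the synapse to the CB1 receptor, the product of Cnr1, which lowers transmitter release from the axon terminal; in cortex the receptor is best known from the terminals of cholecystokinin interneurons. The ligand 2-arachidonoylglycerol (2-AG) is made from diacylglycerol by the lipases of Dagla and Daglb and is broken down mainly by the monoacylglycerol lipase of Mgll. The ligand anandamide can be made by the phospholipase of Napepld and is broken down by the hydrolase of Faah.

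Single-nucleus RNA was measured in the orbitofrontal cortex, a prefrontal area, of wild-type male Sprague-Dawley rats aged 8 weeks. METH (methamphetamine, a psychostimulant) at 1 mg/kg or saline was given into the peritoneum for 7 days, all rats were killed under pentobarbital, and the tissue of 4 rats per group was used. There were 2 libraries per group, METH 1, METH 2, saline 1 and saline 2. The labels do not say which or how many rats went into a library, so p-values measure the spread between these libraries, which may be partly technical.

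The promoters of Mgll and Daglb are shown because these were the genes with their highest level in a glial type. Each covers 250 bases before and 50 after the start of the gene in the RefSeq annotation of rat build GRCr8, and runs 5′ to 3′ on the gene's strand. Capitals mark the letters GGGCGG, the core of the GC box, and TATAAA, the TATA box, on either strand (CCGCCC is GGGCGG read on the other strand).
Mgll promoter, chr4:122749186-122749485, plus strand: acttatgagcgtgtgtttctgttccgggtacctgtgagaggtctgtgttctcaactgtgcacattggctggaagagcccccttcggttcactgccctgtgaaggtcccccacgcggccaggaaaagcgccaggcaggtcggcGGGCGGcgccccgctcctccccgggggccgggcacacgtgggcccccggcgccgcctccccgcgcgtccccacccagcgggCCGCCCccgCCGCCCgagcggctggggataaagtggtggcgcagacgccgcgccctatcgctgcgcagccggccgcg
Daglb promoter, chr12:16215709-16216008, minus strand: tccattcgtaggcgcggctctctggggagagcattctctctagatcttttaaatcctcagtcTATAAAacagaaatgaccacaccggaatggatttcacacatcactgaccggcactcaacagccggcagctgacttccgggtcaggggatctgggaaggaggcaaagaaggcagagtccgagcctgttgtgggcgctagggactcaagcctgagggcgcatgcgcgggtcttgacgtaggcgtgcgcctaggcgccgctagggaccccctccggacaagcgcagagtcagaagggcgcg
Mgll held GGGCGG at 3 places, beginning 108, 27 and 18 bases before the start, no TATAAA, and 35 CG dinucleotides. Daglb held TATAAA at 1 place, 188 bases before the start, no GGGCGG, and 21 CG dinucleotides. Of all 33469 rat promoters of this length, 33.1% held GGGCGG and 14.2% TATAAA on either strand, and the median number of CG dinucleotides was 7. TGACGTCA, the cAMP response element, and CACGTG, the E-box, were searched in the same way; of these, Mgll held CACGTG once, against 6.42% of all promoters, and TGACGTCA was in neither window, against 1.83%. The motifs did not overlap, and a match describes letters only.

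After filtering, 8943, 7937, 14645 and 7602 nuclei were kept in METH 1, METH 2, saline 1 and saline 2, with medians of 2896, 2800, 1963 and 3521 UMIs (counted RNA molecules) per nucleus. Saline 1 stood apart, with the most nuclei, the fewest UMIs per nucleus and 17.5% of its nuclei in no cell type, against 3.48%, 3.29% and 2.20% in METH 1, METH 2 and saline 2. Any pair of libraries shared between 20 and 47 cell barcodes, at most 0.526% of the smaller library. Nuclei were clustered without the 6 genes or any of 33 other endocannabinoid genes, and 35827 of the 39127 nuclei fell into 26 types. A type whose markers settled its name is called by it with "-like"; the others are called by their leading genes and class, such as Rxfp1/Prss12 excitatory. IT, ET and CT stand for intratelencephalic, extratelencephalic and corticothalamic projection neurons. Levels are CPM, the number of the gene's UMIs per 1000000 UMIs of a type in a library, given as mean ± SD over n = 4 libraries unless stated. They compare types for 1 gene and not genes with each other. Types are clusters of the same nuclei, so differences between them are described and were not tested.

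**Figure D1:**
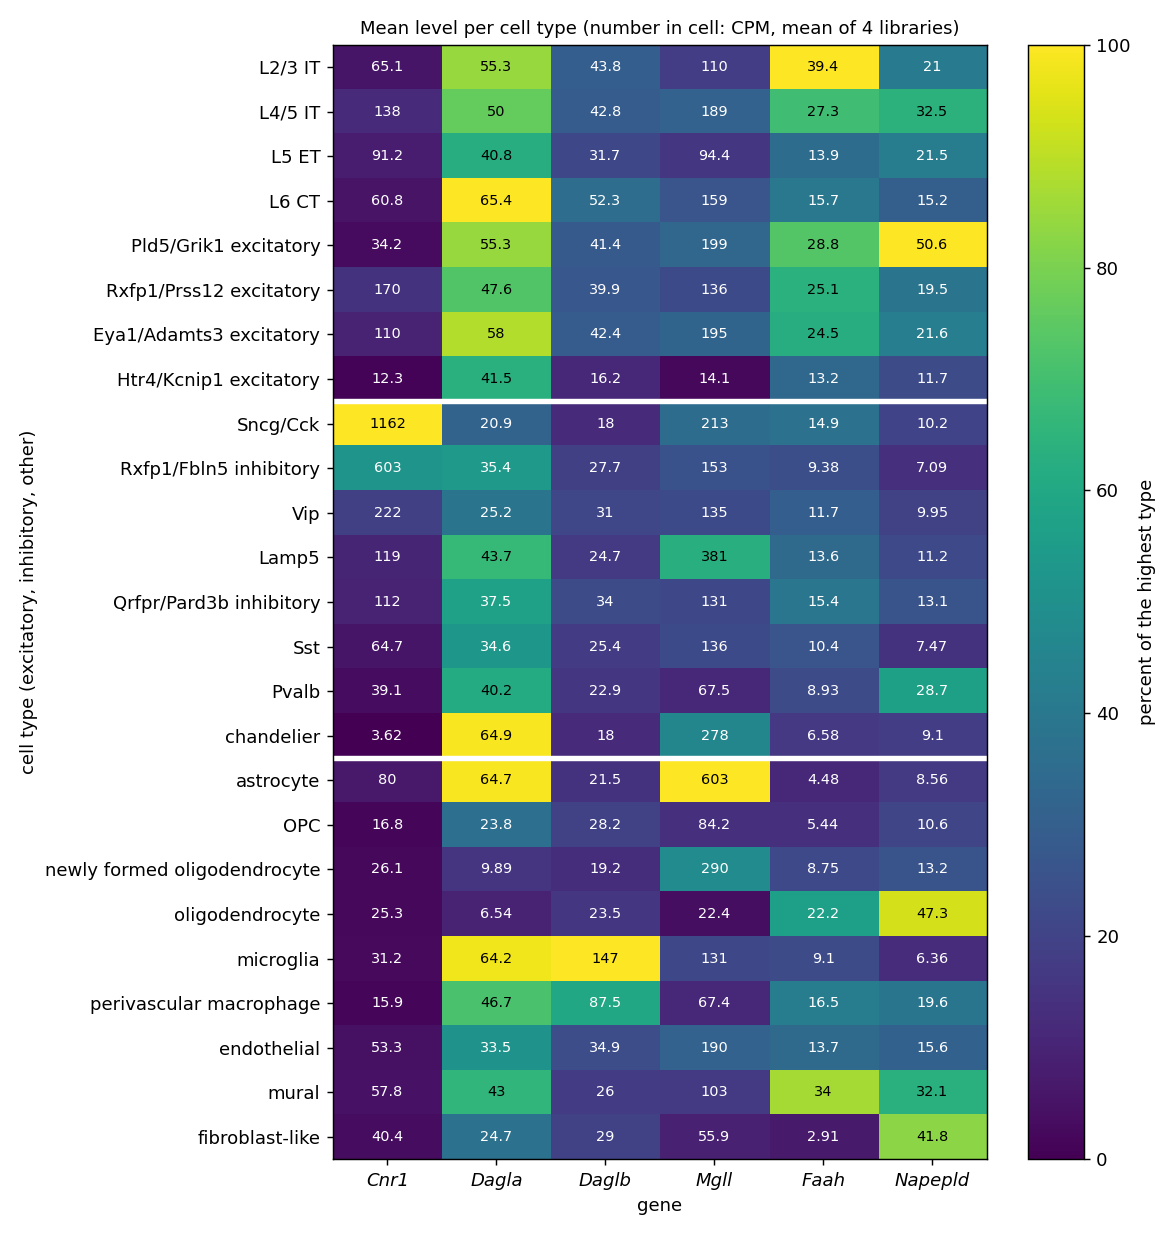
Mean level of each gene (columns) in each of 25 cell types (rows, in the blocks excitatory, inhibitory and other; "-like" is left off). The number in a cell is CPM, the mean of 4 libraries, and the colour is the percentage of that gene's highest type. Cnr1 peaked in Sncg/Cck-like nuclei (1162), Mgll in astrocyte-like (603), Daglb in microglia-like (147), Faah in L2/3 IT-like (39.4) and Napepld in Pld5/Grik1 excitatory nuclei (50.6), while Dagla was spread over many types.

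Cnr1, the receptor gene, had its highest level in a small inhibitory type, Sncg/Cck-like nuclei, followed by Rxfp1/Fbln5 inhibitory and Vip-like nuclei. Sncg/Cck-like nuclei held 909, 1341, 1135 and 1262 CPM in METH 1, METH 2, saline 1 and saline 2, a mean of 1162 ± 189. All 4 libraries lay above every library of any other type, and the METH and saline values overlapped. This level was 5.99 to 8.17 times that of inhibitory nuclei as a whole, library by library, and 24.0 to 35.1 times that of Pvalb-like nuclei, which mark the fast-spiking parvalbumin interneurons. The type was small, with 58, 33, 66 and 29 nuclei. Its name rests on 3 markers that passed the detection minimum, with Cck (cholecystokinin) in 59.1% of its nuclei against 16.1% of other inhibitory nuclei, Npas1 in 53.8% against 22.9% and Cxcl14 in 12.9% against 2.18%, while its other markers were rare or absent: Sncg, which is in the name, was in 2.15%, Slc17a8 in 4.30% and Col14a1 in 3.76% of its nuclei, and Krt73 was at 0. Cnr1 itself was among its 10 leading genes although it had no part in the clustering.

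Rxfp1/Fbln5 inhibitory nuclei, whose scores for the Lamp5 and Sncg/Cck markers were nearly equal, came next with 516, 719, 484 and 694 CPM (603 ± 121). This type was also small, with 35, 25, 55 and 35 nuclei. Vip-like nuclei, interneurons marked by vasoactive intestinal peptide, held 218, 234, 215 and 221 CPM (222 ± 8.61). These 3 types did not overlap with each other in any library. Together with Rxfp1/Prss12 excitatory (170 ± 12.6), L4/5 IT-like (138 ± 4.25) and Lamp5-like nuclei (119 ± 12.6) they made a run of 6 types in which each lay above the next in all 4 libraries. Below Lamp5-like nuclei, neighbours in the order overlapped, except that astrocyte-like nuclei (80.0 ± 7.34) lay above L2/3 IT-like nuclei (65.1 ± 2.89). Chandelier-like nuclei, axo-axonic interneurons, held 1 Cnr1 UMI in METH 1 and 0 in METH 2, saline 1 and saline 2, where 3 UMIs would have been at most 48.0 CPM.

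**Figure D2:**
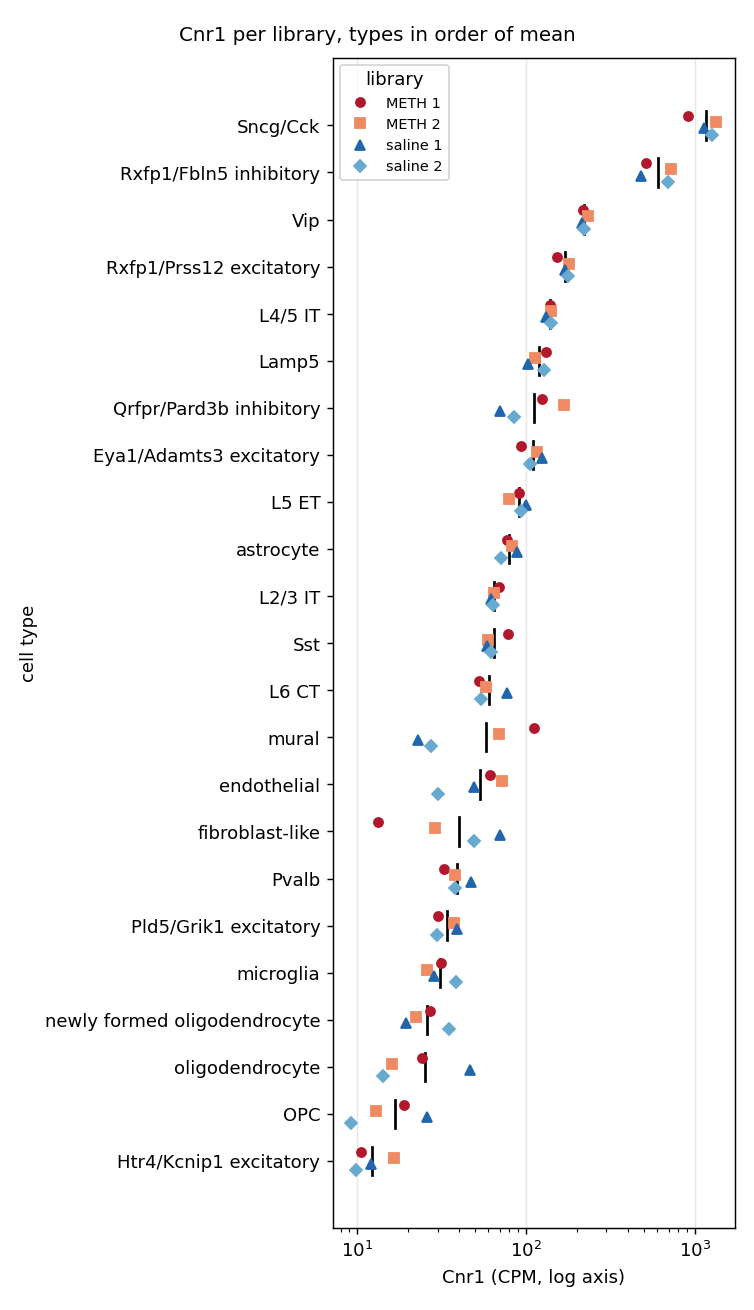
Cnr1 level in CPM (log axis) in each library (symbols) for 23 cell types in the order of their mean (bar); the types with a library at 0 are left off, as is "-like". The Sncg/Cck libraries sit between 909 and 1341, all to the right of the Rxfp1/Fbln5 inhibitory libraries at 484 to 719.

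Although inhibitory types led, most Cnr1 RNA lay in excitatory nuclei, which were more numerous. Excitatory nuclei as a whole held 88.2, 89.2, 93.0 and 90.4 CPM (90.2 ± 2.06), and inhibitory nuclei 152, 187, 157 and 154 CPM (162 ± 16.2), so the inhibitory class was higher by 1.69 to 2.09 times in every library. Of 12467 Cnr1 UMIs, 70.7% came from excitatory types, 18.4% from inhibitory types and 3.95% from astrocyte-like nuclei. Sncg/Cck-like nuclei gave 6.57% of all Cnr1 UMIs from 0.475% of the nuclei, and 35.7% of the inhibitory UMIs from 4.61% of inhibitory nuclei. Within the excitatory class Cnr1 varied widely. L4/5 IT-like nuclei held 2.00 to 2.20 times the level of L2/3 IT-like nuclei, and Rxfp1/Prss12 excitatory nuclei 10.9 to 18.2 times that of Htr4/Kcnip1 excitatory nuclei, the lowest excitatory type with 10.5, 16.6, 12.2 and 9.83 CPM.

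Sub-clusters within a named type also differed in Cnr1. In Lamp5-like nuclei, the sub-cluster led by Neb and Sema3e held 149 to 278 CPM and the one led by Sv2c and Pde11a 46.9 to 86.7, with no overlap between libraries. In Vip-like nuclei, the sub-cluster led by Chat and Slc5a7, genes of acetylcholine synthesis and choline uptake, held 104 to 143 CPM, below the other 3, which ranged from 181 to 432. For Mgll the 2 Lamp5-like sub-clusters stood the other way round. The Neb and Sema3e sub-cluster held 125 to 261 CPM and the Sv2c and Pde11a sub-cluster 431 to 559. These levels rest on few nuclei. The Neb and Sema3e sub-cluster had 38, 47, 47 and 33 nuclei in METH 1, METH 2, saline 1 and saline 2. The smallest Vip-like sub-cluster had 23, 15, 25 and 19.

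Shares of nuclei with a UMI were also read after thinning to 1000 UMIs, here and below only over nuclei with at least 1000. Shallower nuclei were left out of the thinned shares. The share of nuclei with a Cnr1 UMI then gave the same order. It was 59.0% in Sncg/Cck-like nuclei (53.4% to 65.5% over libraries; 91.4% before thinning), 39.9% in Rxfp1/Fbln5 inhibitory, 16.9% in Vip-like, 8.04% in excitatory and 7.54% in astrocyte-like nuclei. Microglia-like and oligodendrocyte-like nuclei, taken as types with little Cnr1, gave 2.50% and 2.06%. Median depths before thinning, over all nuclei of a type, were 3420.5 UMIs in Sncg/Cck-like, 928 in microglia-like and 1175 in oligodendrocyte-like nuclei. Most microglia-like nuclei were thus too shallow and left out. So were most astrocyte-like and oligodendrocyte-like nuclei of saline 1, with medians of 923 and 890. The most Cnr1 UMIs in 1 nucleus was 24, in the Sncg/Cck-like type. Astrocyte-like nuclei also held RNA of the 6 measured excitatory neuron markers, none of them at 0, with a summed level of 161, 120, 259 and 119 CPM against 1334 to 2738 over the excitatory types; their part in the astrocyte value was not tested. In microglia-like nuclei the same sum was 250, 182, 258 and 181 CPM.

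The 2 genes of 2-AG synthesis were arranged differently. Dagla, the main synthetic lipase of adult brain, was broad and flat. It was highest in L6 CT-like nuclei at 68.8, 64.4, 63.9 and 64.7 CPM (65.4 ± 2.23), with chandelier-like (64.9 ± 39.8, from 20 UMIs), astrocyte-like (64.7 ± 8.77) and microglia-like nuclei (64.2 ± 13.1) next. Libraries of these types overlapped, so no single type led. Astrocyte-like nuclei held 58.3, 77.6, 61.3 and 61.4 CPM. Excitatory nuclei held 56.4, 48.9, 51.9 and 54.2 CPM (52.8 ± 3.19), 1.33 to 1.57 times the 35.9, 35.5, 34.0 and 40.6 CPM of inhibitory nuclei (36.5 ± 2.86). Dagla was lowest in oligodendrocyte-like nuclei, the myelinating cells, at 4.55, 5.15, 7.01 and 9.46 CPM. L6 CT-like nuclei held 6.84 to 15.1 times that level. Excitatory types gave 76.8% of 6720 Dagla UMIs.

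Daglb, the second diacylglycerol lipase, was highest in microglia-like nuclei, the resident immune cells, at 159, 165, 136 and 125 CPM (147 ± 19.0). All 4 libraries lay above those of the next type, perivascular macrophage-like nuclei (87.5 ± 25.2, from 17 UMIs), and above L6 CT-like nuclei at 46.7, 46.7, 56.6 and 59.2 CPM (52.3 ± 6.55). The microglia-like level was 3.05 to 3.99 times that of excitatory nuclei (42.3, 41.5, 43.5 and 41.0 CPM) and 5.66 to 8.48 times that of astrocyte-like nuclei (21.5 ± 4.06). It rests on 267 UMIs and on few nuclei in saline 1 (157, against 494 to 562 elsewhere). A further cluster of 429 nuclei scored highest for microglia markers but also high for oligodendrocyte markers, and was left unnamed. That cluster held 79, 86, 226 and 38 nuclei in METH 1, METH 2, saline 1 and saline 2, so more such nuclei of saline 1 were left out than kept. With the clustering resolution doubled the microglia-like Daglb level was 118 CPM and with doublets kept 77.8 CPM. Among nuclei with at least 1000 UMIs, after thinning, 14.0% of microglia-like nuclei had a Daglb UMI. The share was 4.46% in excitatory, 2.49% in inhibitory and 2.07% in astrocyte-like nuclei. Inhibitory nuclei held 27.0, 27.0, 24.1 and 22.4 CPM, and the lowest type was Htr4/Kcnip1 excitatory (16.2 ± 4.18). Microglia-like nuclei were few and held few UMIs each. They gave 4.91% of 5440 Daglb UMIs, and excitatory types 75.6%.

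Mgll, the gene of the main 2-AG-degrading lipase, was highest in astrocyte-like nuclei, at 604, 624, 503 and 682 CPM (603 ± 74.5). This was above every library of the next type and 3.57 to 4.65 times the level of excitatory nuclei (144, 154, 141 and 147 CPM, 147 ± 5.74). Lamp5-like interneurons came second at 332, 386, 407 and 399 CPM (381 ± 33.9), 2.33 to 2.72 times the inhibitory class (124, 165, 150 and 157 CPM, 149 ± 17.8) and 4.77 to 6.82 times Pvalb-like nuclei. Newly formed oligodendrocyte-like nuclei came next at 224, 308, 233 and 395 CPM (290 ± 79.5). Mature oligodendrocyte-like nuclei stood near the bottom at 22.4 ± 7.04, and the libraries of these 2 stages of 1 lineage did not overlap. Htr4/Kcnip1 excitatory nuclei were lowest, at 21.1, 7.37, 18.2 and 9.83 CPM. Astrocyte-like nuclei gave 16.8% of 22042 Mgll UMIs from 10.4% of nuclei. Among nuclei with at least 1000 UMIs, after thinning, 42.0% of astrocyte-like nuclei had an Mgll UMI (38.0% to 46.4% over libraries). The share was 31.3% in Lamp5-like, 13.6% in excitatory, 13.1% in inhibitory and 2.10% in oligodendrocyte-like nuclei.

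**Figure D3:**
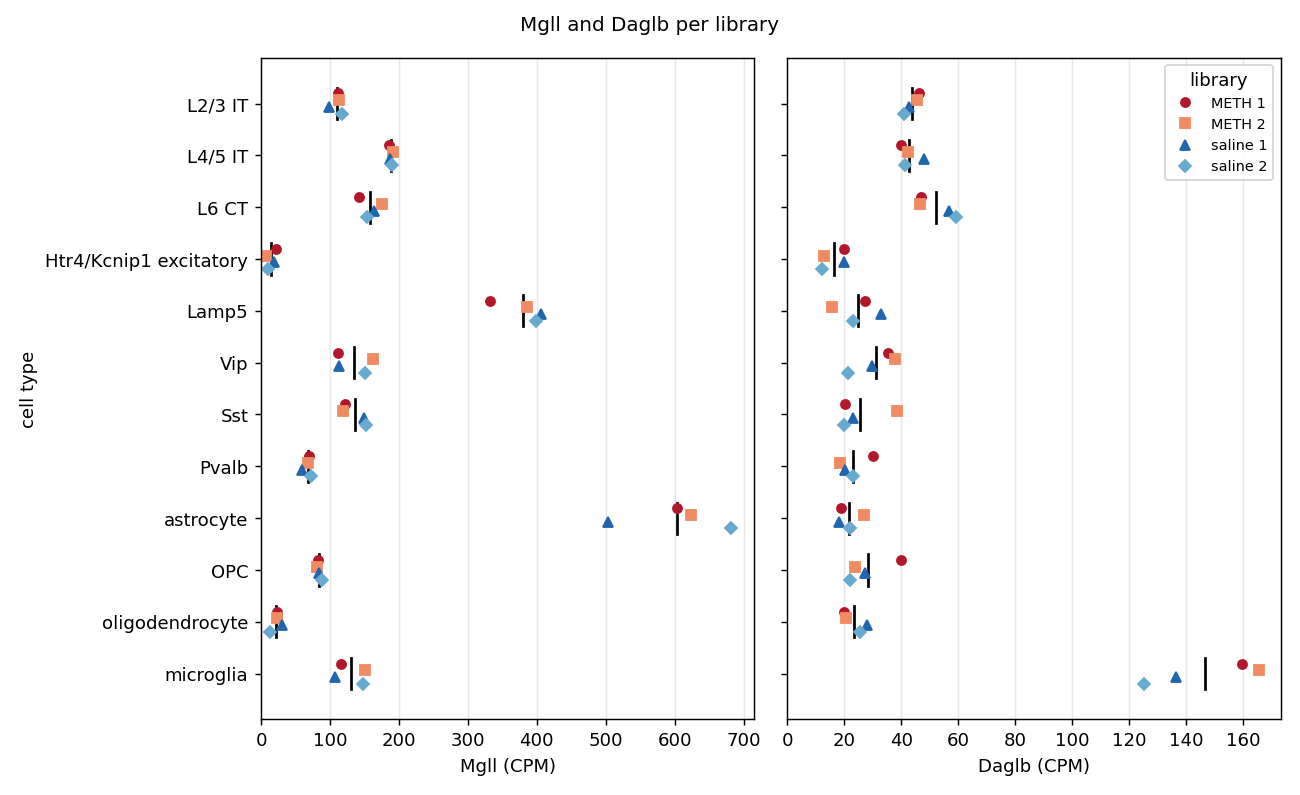
Mgll (left) and Daglb (right) in CPM in each library (symbols) for 12 cell types, with the mean of 4 libraries as a bar; "-like" is left off. Mgll lay at 503 to 682 in astrocytes and 332 to 407 in Lamp5 nuclei, and Daglb at 125 to 165 in microglia.

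The anandamide genes were both expressed more in excitatory than inhibitory nuclei. Napepld, the phospholipase gene, was highest in Pld5/Grik1 excitatory nuclei at 58.9, 49.6, 47.8 and 46.1 CPM (50.6 ± 5.72), 2.08 to 2.86 times the level of L2/3 IT-like nuclei. Oligodendrocyte-like nuclei held 56.1, 48.3, 32.7 and 52.0 CPM (47.3 ± 10.2) and overlapped with them. Fibroblast-like nuclei followed (41.8 ± 19.3, from 30 UMIs). Astrocyte-like nuclei held 8.56 ± 2.80 CPM, and microglia-like nuclei were lowest at 9.84, 6.49, 7.17 and 1.93 CPM. Excitatory nuclei held 27.9, 27.0, 26.7 and 23.6 CPM (26.3 ± 1.84), and inhibitory nuclei 12.5, 18.4, 17.8 and 16.1 CPM (16.2 ± 2.64), with no overlap between the classes. Among nuclei with at least 1000 UMIs, after thinning, 5.18% of oligodendrocyte-like nuclei had a Napepld UMI. The share was 2.57% in excitatory and 0.555% in microglia-like nuclei.

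Faah, the gene of the anandamide-degrading hydrolase, was highest in L2/3 IT-like nuclei, the upper-layer projection neurons, at 38.5, 33.7, 43.9 and 41.4 CPM (39.4 ± 4.37). Mural-like nuclei ranked next (34.0 ± 39.8) but from 8 UMIs in all, with 0 in saline 2. They were followed by Pld5/Grik1 excitatory (25.7, 25.0, 35.6 and 29.0 CPM) and L4/5 IT-like nuclei (27.3 ± 1.54). Among glia, oligodendrocyte-like nuclei held 22.2 ± 8.38 and astrocyte-like nuclei 4.53, 1.47, 4.54 and 7.37 CPM. Fibroblast-like nuclei ranked lowest with 2 UMIs. Excitatory nuclei held 25.8, 25.5, 30.3 and 27.5 CPM (27.3 ± 2.19), 2.48 to 2.62 times the 10.4, 9.80, 11.6 and 10.9 CPM of inhibitory nuclei (10.7 ± 0.746). No pair of neighbours in the order of types was free of overlap for Faah or for Napepld, so their order is coarse. Excitatory types gave 84.7% of 3156 Faah UMIs. A gene named Faahl, listed apart from Faah, held 3 UMIs in all.

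**Figure D4:**
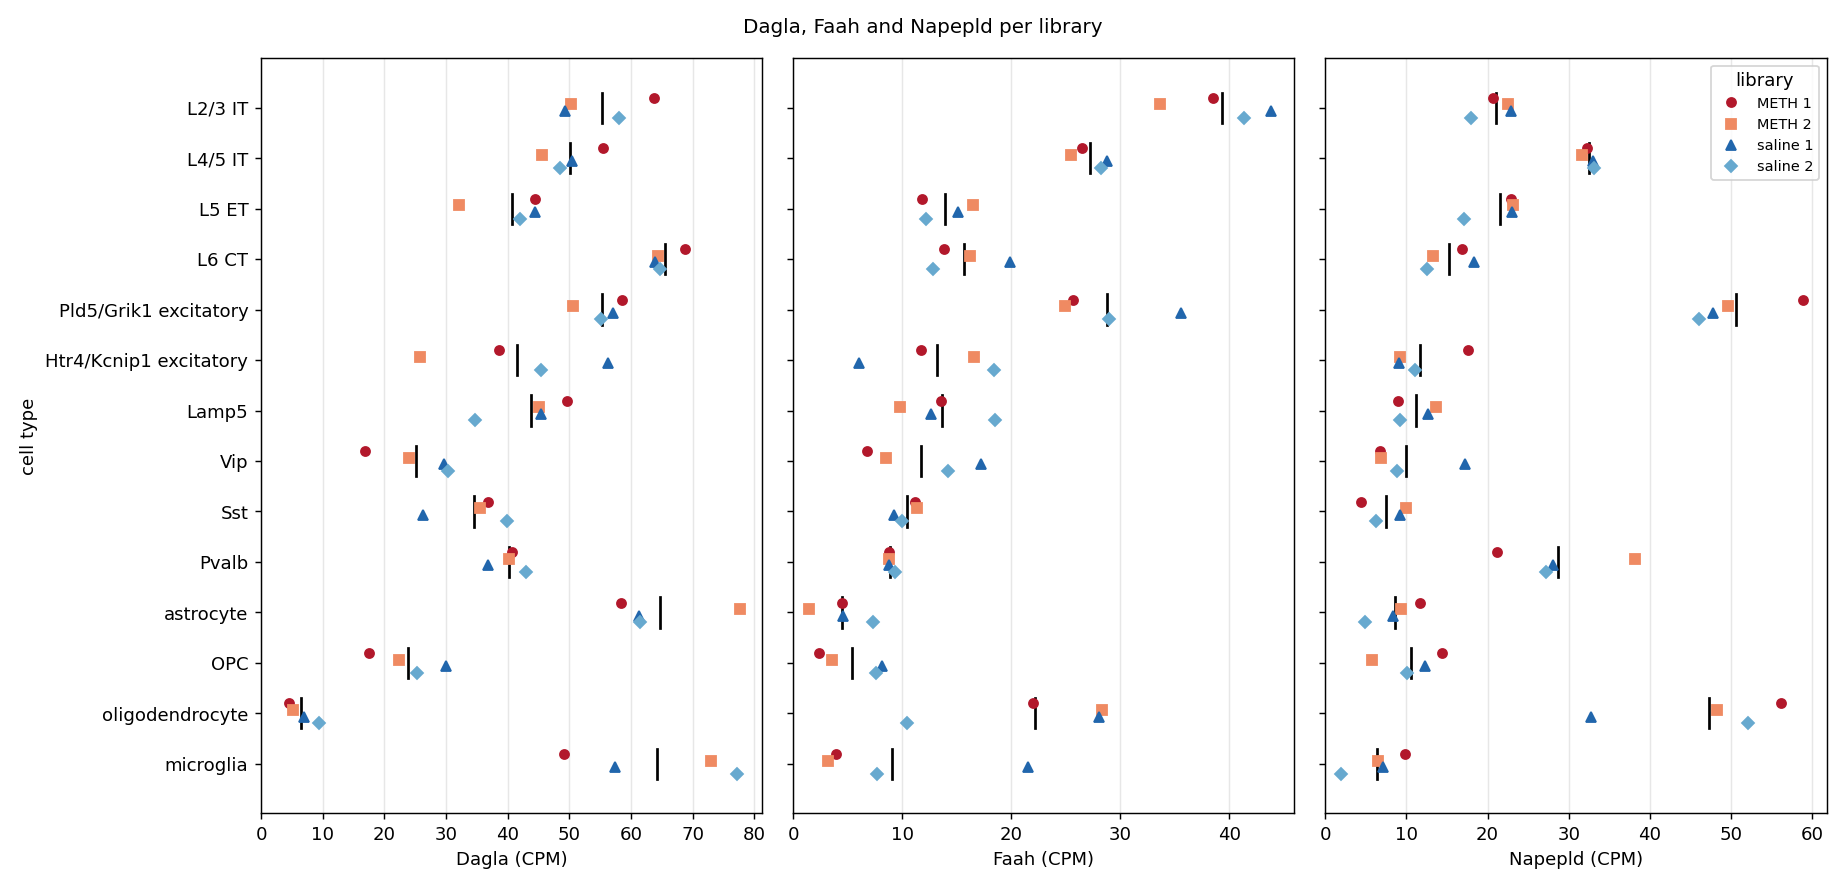
Dagla, Faah and Napepld in CPM in each library (symbols) for 14 cell types, with the mean of 4 libraries as a bar; "-like" is left off. Dagla was at 4.55 to 9.46 in oligodendrocytes and Faah at 33.7 to 43.9 in L2/3 IT nuclei.

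Across the 26 types, the correlation of mean log2(CPM + 1) between members was highest for Faah and Napepld (Pearson r = 0.56) and for Dagla and Daglb (r = 0.41), and lowest for Mgll and Napepld (r = -0.28). The points share libraries, and small types rest on few UMIs. Among 9150 genes with a mean of at least 10 CPM over these types, the gene most like Cnr1 was Spaca1 (r = 0.89), then Adra1b (0.79), an alpha-1 adrenergic receptor gene, Rxfp1 (0.77), the relaxin receptor gene that also leads several of the types, Kcnn2 (0.75), a small-conductance potassium channel gene, and Pfkl (0.75), a phosphofructokinase gene. Camk1d was most like Dagla (r = 0.89), Cyth4 most like Daglb (0.84), Usp31 most like Faah (0.84) and Exph5 most like Napepld (0.81), while for Mgll the highest was Abcd2 (0.61).

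A list of 33 other endocannabinoid genes was read beside the members. Of the other receptors, Cnr2, the gene of the CB2 receptor, had 46 UMIs in all and its highest level in microglia-like nuclei at 9.84 to 23.1 CPM. Gpr55 had 1 UMI. Sgip1, a partner of the CB1 receptor, was better detected and highest in astrocyte-like nuclei (659 CPM). The other 2-AG-degrading lipase genes did not follow Mgll. Abhd12 was highest in microglia-like nuclei, at 746 to 1022 CPM with a mean of 829, and the next type, newly formed oligodendrocyte-like, averaged 245. Abhd6 was highest in L2/3 IT-like nuclei (199 CPM). Naaa, an acid amidase gene, was highest in perivascular macrophage-like nuclei (111 CPM) and Gdpd1 in newly formed oligodendrocyte-like nuclei (302 CPM). Upstream of 2-AG synthesis, the metabotropic glutamate receptor gene Grm5 was highest in Pvalb-like nuclei (2078 CPM).

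METH and saline were then compared within each of the 20 types that had at least 50 nuclei in every library, on counts summed per library, with edgeR's quasi-likelihood test over all genes of a type (two-sided, Benjamini-Hochberg adjustment, calls at an adjusted p under 0.05). None of the 6 genes was called in any type. Over 91 tests of a member in a type, 0 were called, 52 estimates were above 0 and 39 below, and log2 fold changes (METH minus saline) ran from -0.59 to 0.69. Over all genes and these types, 0.0205% of 171022 tests were called, so a count of 0 of 91 does not set the members apart from it. Of the member tests, 3 (3.30%) had an unadjusted p under 0.05, against 4.54% of all tests. With DESeq2 none of 120 member tests had one or was called. Such p-values were rarer with DESeq2 over all genes too. In L2/3 IT-like nuclei 72 of 18972 genes had one, against 514 of 12614 with edgeR, so this 0 is not comparable with the edgeR share. METH and saline libraries did not overlap in 31 of the 91 tests (34.1%), against 33.1% for all genes with at least 20 UMIs in a type. The number of genes called over all types was 35, and leaving out METH 1, METH 2, saline 1 or saline 2 moved it to 183, 112, 111 or 1059. No member was called in any of these, nor in any of 1559 member fits over all 15 settings, where the lowest adjusted p was 0.126.

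In excitatory nuclei, the best measured class, none of the 6 genes was called in a test in which 0.0133% of genes were. The Cnr1 log2 fold change was -0.03 (95% interval -0.16 to 0.11), with METH libraries at 88.2 and 89.2 CPM and saline libraries, both higher, at 93.0 and 90.4. That of Dagla was 0.01 (-0.17 to 0.19) and that of Daglb 0.01 (-0.16 to 0.17). Mgll gave 0.08 (-0.06 to 0.21). Faah gave -0.15 (-0.34 to 0.04), with all METH values below all saline values, and Napepld 0.14 (-0.06 to 0.34), with all METH values above. The farthest reach of these intervals was -0.34 for Faah and 0.34 for Napepld, and no gene's interval reached that far on both sides. A class value also moves with the mix of types in it, which was not adjusted for.

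In inhibitory nuclei the estimates were 0.11 for Cnr1 (SE 0.089), -0.07 for Dagla (SE 0.15), 0.21 for Daglb (SE 0.17), -0.10 for Mgll (SE 0.11), -0.15 for Faah (SE 0.25) and -0.16 for Napepld (SE 0.22), and 0.0171% of genes were called in that test. The inhibitory METH effect did not differ detectably from the excitatory one for any member (edgeR, library as a block, adjusted p = 1 for each; 0.00674% of 14828 genes called). In astrocyte-like nuclei, where 0.00988% of genes were called, Cnr1 gave 0.01 (SE 0.16), Dagla 0.17 (SE 0.19), Daglb 0.22 (SE 0.29), Mgll 0.06 (SE 0.13) and Napepld 0.64 (SE 0.46, from 54 UMIs), and Faah was too low to be tested. The Mgll interval there ran from -0.23 to 0.35. Sncg/Cck-like nuclei, where Cnr1 was highest, were too few for a test; METH libraries held 909 and 1341 CPM and saline libraries 1135 and 1262, so the METH values lay outside the saline values on both sides.

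**Figure D5:**
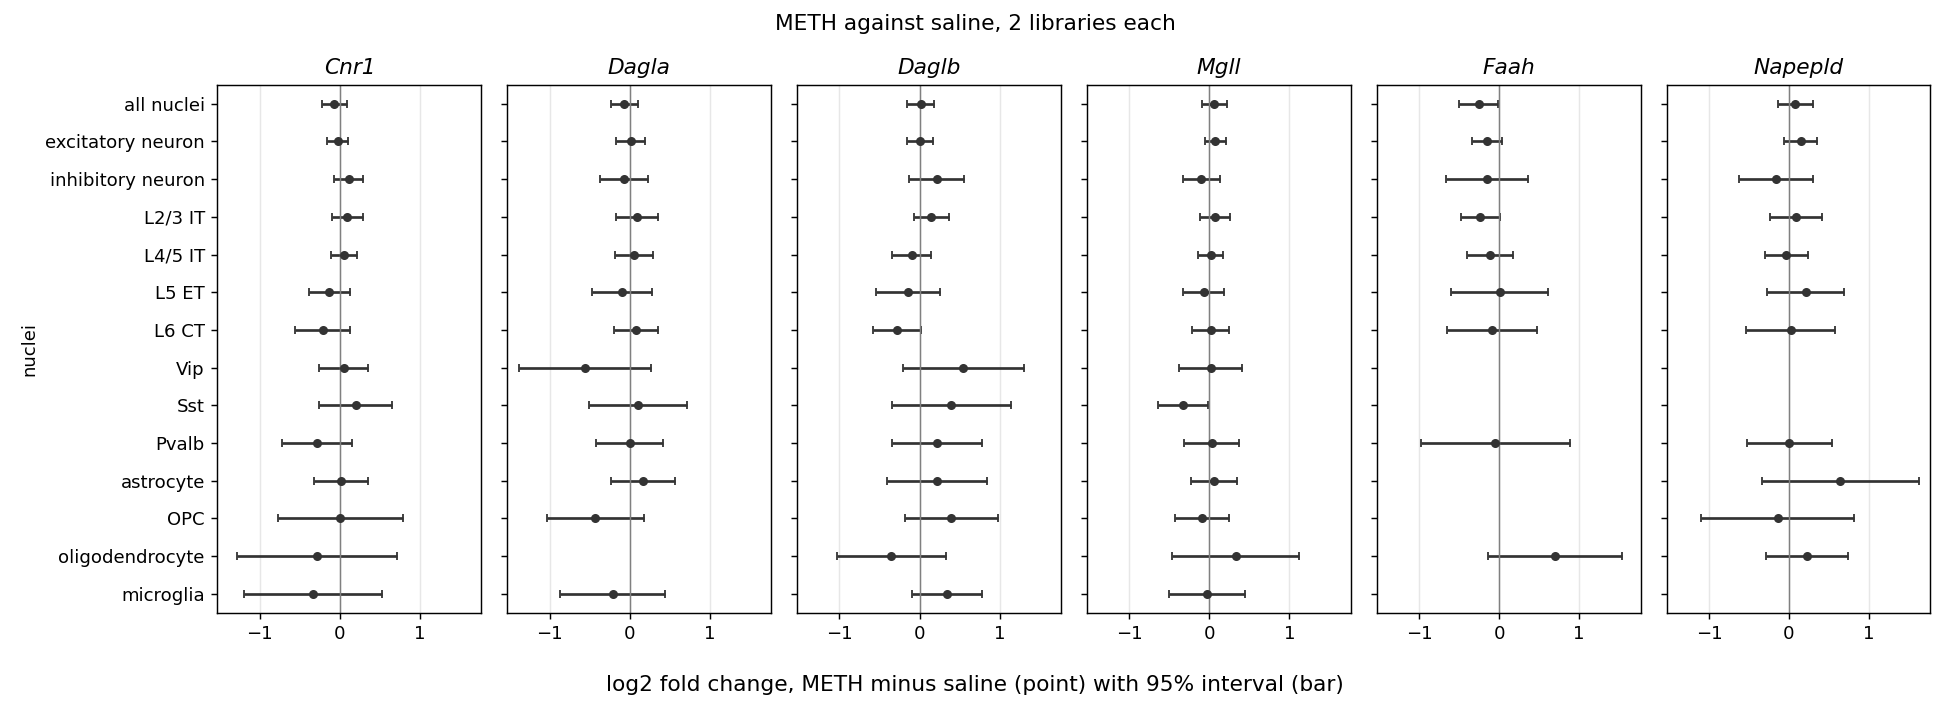
Log2 fold change of each gene, METH minus saline (points), with its 95% interval (bars) in all nuclei, the neuron classes and 11 cell types, 2 libraries per group; a missing point was too low to be tested and "-like" is left off. In excitatory neurons the interval ran from -0.16 to 0.11 for Cnr1 and from -0.06 to 0.21 for Mgll; Faah in all nuclei (-0.26) and Mgll in Sst (-0.33) lay below 0 but did not pass adjustment over genes.

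Of the 3 member tests with an unadjusted p under 0.05, 2 are given here. Mgll in Sst-like nuclei, the somatostatin interneurons, was 122 and 119 CPM in METH and 150 and 152 in saline (log2 fold change -0.33, SE 0.15, edgeR adjusted p = 0.998; 0.0121% of genes called). Dagla in Htr4/Kcnip1 excitatory nuclei was 38.6 and 25.8 CPM in METH and 56.2 and 45.5 in saline (-0.59, SE 0.28, adjusted p = 0.955; 0.0123% called). Over all nuclei kept, Faah was 21.3 and 20.7 CPM in METH and 26.6 and 23.0 in saline (-0.26, SE 0.10, adjusted p = 0.809), where 0% of 16245 genes were called and 6.17% had an unadjusted p under 0.05. Excitatory nuclei, the source of most Faah UMIs, were 43.8% and 39.4% of nuclei kept in METH and 53.0% and 46.8% in saline. These shares leave out an unnamed cluster, mostly of saline 1, that scored highest for excitatory neuron markers. The part of this mix in the Faah difference was not tested. Groups did not overlap in any of these, and none passed adjustment. For Daglb in microglia-like nuclei, where 0% of genes were called, both METH libraries (159 and 165 CPM) were above both saline libraries (136 and 125), with a log2 fold change of 0.35 (95% interval -0.09 to 0.78) that was not called.

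None of the other endocannabinoid genes was called either, in 332 edgeR tests over 20 types of which 164 were above and 168 below 0. Of these, 16 (4.82%) had an unadjusted p under 0.05, and with DESeq2 2 of 593. The smallest p belonged to Homer1, a scaffold gene of group I metabotropic glutamate receptors, in L5 ET-like nuclei, at 2066 and 1654 CPM in METH and 1438 and 1374 in saline (log2 fold change 0.43, SE 0.088, edgeR adjusted p = 0.368; 0.0095% of genes called). It was called there without METH 2 (0.58), without saline 1 (0.46), without saline 2 (0.40), with the replicate block (0.42) and with no filter on low counts (0.42), that is in 5 of 13 alternatives. It was not called in the other 8, which were without METH 1 (0.25, edgeR adjusted p = 0.410), DESeq2 (0.42, adjusted p = 1.00), RLE size factors, at least 1000 genes per nucleus, members among the clustering genes, resolution doubled, doublets kept and equal numbers of nuclei. Over these 8, adjusted p ran from 0.184 to 1.00.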

How the data were processed

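Per the labels' protocols, single nuclei were captured with 10x Genomics 3' chemistry. Deposited were UMI counts per gene and barcode, not normalized, which the authors made with Cell Ranger 7.0.0, per the submitters' processing notes. Those notes list hg38, a human build, but the genes carry rat Ensembl identifiers, and no rat build is named in what was used here. Library totals were 39552954, 37758602, 44034787 and 38811323 UMIs (METH 1, METH 2, saline 1, saline 2). The 95% intervals of fold changes are edgeR's and rest on the spread between libraries; the limit of 3 UMIs covers counting error only. The members and lists were chosen with earlier results of these data known.

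Nuclei with under 500 genes or over 5% mitochondrial UMIs were left out. Scrublet's automatic threshold marked 0% of saline 1 and so had not worked there; instead the highest doublet scores, 0.8% per 1000 barcodes, were removed (831, 628, 2748 and 569). Clustering used Scanpy 1.11.5 in Python 3.11.15 (3000 variable genes without the 39 endocannabinoid genes, 30 components, 20 neighbours, Leiden resolution 1, seed 1), then again within each neuron class. A name needed a marker score of at least 0.4, a next unrelated score of at most 0.6 of it, and 3 markers in 10% of nuclei; the score limits follow earlier work on these data. Neuron sub-clusters led by another class's markers (1333 nuclei) and unnamed clusters (1967), which joined neither neuron class, were in no type. Most of the unnamed nuclei, 1538, were in a cluster that scored highest for excitatory neuron markers (0.386), under the limit of 0.4. It held 103, 70, 1321 and 44 nuclei in METH 1, METH 2, saline 1 and saline 2, which the excitatory class thus lacks. Putting those sub-clusters, but not the unnamed clusters, back into the neuron classes was an alternative chosen after seeing the clusters.

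Counts were summed per type and library and tested with edgeR 4.0.16 in R 4.3.3 (quasi-likelihood, robust, TMM, filterByExpr). DESeq2 1.42.0, RLE factors, no filter, a replicate block, each library left out, at least 1000 genes per nucleus, members among the clustering genes, doubled resolution, doublets kept and equal numbers of nuclei were alternatives, which needed 20 nuclei per library. The SE is the fold change over the square root of F. The fit was tested on simulated data. All 6 members were named with their classes, 3 highest types and lowest type; fold changes were named for the neuron classes, astrocyte-like nuclei and any unadjusted p under 0.05, and other genes by the smallest p; Daglb in microglia-like nuclei, Cnr1 in Sncg/Cck-like nuclei and the sub-clusters were chosen after their values were seen. Promoter sequences are RefSeq's, on GRCr8. Results of 1 cell type and 1 other gene are not reported here; both are counted in the totals.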

Additional observations from a re-analysis of the deposited data

How the results depend on the processing

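No member was called under any of the 14 alternatives. Direction was followed only in the neuron classes, in astrocyte-like nuclei and for tests with an unadjusted p under 0.05. Of those log2 fold changes, none of them called, 18 changed direction and 262 did not. Over the fits that left out 1 library, Cnr1 ran from -0.116 to 0.168 in astrocyte-like and from -0.0381 to 0.262 in inhibitory nuclei. Dagla ran from -0.0817 to 0.368 in astrocyte-like, from -0.102 to 0.116 in excitatory and from -0.188 to 0.0682 in inhibitory nuclei. Daglb ran from -0.105 to 0.455 in astrocyte-like and from -0.0381 to 0.0507 in excitatory nuclei. Mgll ran from -0.157 to 0.312 in astrocyte-like and from -0.309 to 0.108 in inhibitory nuclei, and Napepld from -0.433 to 0.121 in inhibitory nuclei. With equal numbers of nuclei, Cnr1 in astrocyte-like nuclei was -0.0227, Dagla in excitatory nuclei -0.0378 and Faah in inhibitory nuclei 0.0128. With at least 1000 genes per nucleus, Daglb was -0.148 in astrocyte-like and -0.000669 in excitatory nuclei. The level of Daglb in microglia-like nuclei moved from 147 CPM to 118 with the resolution doubled and 77.8 with doublets kept, and that of Mgll in astrocyte-like nuclei from 603 to 497 with doublets kept, where no Sncg/Cck-like type could be named. The causes were not tested. Genes called over the 20 types numbered 35, against 164 with no filter on low counts, 11 with DESeq2, 114 with the replicate block and 111 to 1059 with 1 library left out. Replicate numbers were not taken to pair the libraries: with 2 pairs, deviations of same-numbered libraries correlated at 0.195 over all nuclei, -0.0183 in excitatory, -0.00492 in inhibitory and 0.138 in astrocyte-like nuclei. With the replicate block 0 members were called, and Cnr1 in inhibitory nuclei was 0.111. Depth limits Faah and Napepld, which had under 20 UMIs in 10 and 9 of 26 types.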
